A study of Homo sapiens with 6 samples.

Results

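The genes described here were the human ATP-binding cassette (ABC) transporter genes with a symbol of the form ABCA to ABCG and a number, apart from ABCA1, ABCG1 and ABCA7. In GENCODE 44 (build GRCh38), 45 protein-coding genes had such a symbol, these 3 were set aside, and 42 genes on 15 chromosomes were left, all of them among the 63140 genes listed for each library. BT-549 is a human breast cancer cell line of the triple negative class, and the labels give it as epithelial and wild type. RNA-seq was made from 3 libraries of cells kept for 24 hours in adipocyte-conditioned medium (ACM) and 3 libraries of cells kept as long in unconditioned medium (UCM). ACM was the supernatant of OP9 mouse stromal cells that had been turned towards adipocytes in a medium with insulin, oleate and albumin.

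Several properties of the groups limit what the comparison can separate. The sample labels give the treatment as 50% ACM, whereas the methods of the study give undiluted ACM for RNA-seq, so the dose is uncertain. The composition of UCM is not given in the sources used here, and secreted factors therefore cannot be told apart from a difference in the base medium, serum, oleate or insulin. The replicates were wells of a plate as far as the sources go, so the p-values measure only the spread between these samples, which may be technical.

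ABC transporters bind and split ATP in a pair of conserved nucleotide-binding domains and use the energy to move lipids, metabolites, peptides or drugs across a membrane. Subfamily A holds mostly lipid transporters, B the P-glycoprotein, peptide and mitochondrial transporters, C the multidrug resistance proteins (MRPs), D the peroxisomal fatty acid transporters and G the sterol and drug exporters. The proteins of subfamilies E and F have no membrane-spanning part and act on ribosomes. Tumor cells have been studied for the exporters among them, since P-glycoprotein, the MRPs and ABCG2 carry anticancer drugs out of the cell.

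The 6 libraries held between 17135270 and 21053214 counts assigned to genes, and 14451 genes had enough counts to be tested. The replicate 1 libraries of both groups resembled each other. CPM are counts scaled to the size of the library with TMM factors, and log CPM of ACM replicate 1 correlated at r = 0.986 with UCM replicate 1 and at 0.985 with each of the other ACM libraries. Results were therefore also computed without both of them. As a check of the cell type, summed TPM (the transcript level scaled for transcript length and library size) of 5 mesenchymal markers was 4653 to 5127 in ACM and 4344 to 4984 in UCM, whereas 6 breast epithelial markers together reached 1.02 to 1.47 TPM in ACM and 1.16 to 2.21 TPM in UCM. The epithelial label was thus not matched by these markers in either medium. Of the receptor genes listed as low in triple negative cells, the estrogen and progesterone receptor genes ESR1 and PGR were at 0 in all 6 libraries. ERBB2, also on that list, was not, with 26.45 to 28.54 TPM in ACM and 25.45 to 32.43 TPM in UCM. Of 7 adipocyte markers, ADIPOQ, LEP and CIDEC were at 0 in every library, and the list summed to 3.77 to 6.41 TPM in ACM and 3.23 to 3.93 TPM in UCM. All 5 macrophage markers had a count in some library. Their sum was 13.05 to 31.1 TPM in ACM and 6.32 to 8.5 TPM in UCM, most of it from CD68, a lysosomal protein gene (log2 FC = 1.76, edgeR adjusted p = 0.0335), while PTPRC stayed at 0.18 TPM or less. The part of this list in the results below was not tested.

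Of the 42 genes, 24 had enough counts for the test and 18 did not. Between ACM and UCM, 2 of the 24 genes changed at an adjusted p of 0.05 or less, ABCA3 and ABCA10, both higher in ACM, and 0 were lower. Across all tested genes 5.56% passed that threshold, 3.35% higher and 2.21% lower in ACM. The count for the transporters was close to that share and is no result about the family as a whole. ABCC2, the canalicular exporter MRP2, was lower in all 3 ACM libraries than in all 3 UCM libraries, at a very low level, but did not pass the adjusted threshold. Because these were bulk libraries, fewer cells with a transcript and less of it per cell cannot be told apart.

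**Figure D1:**
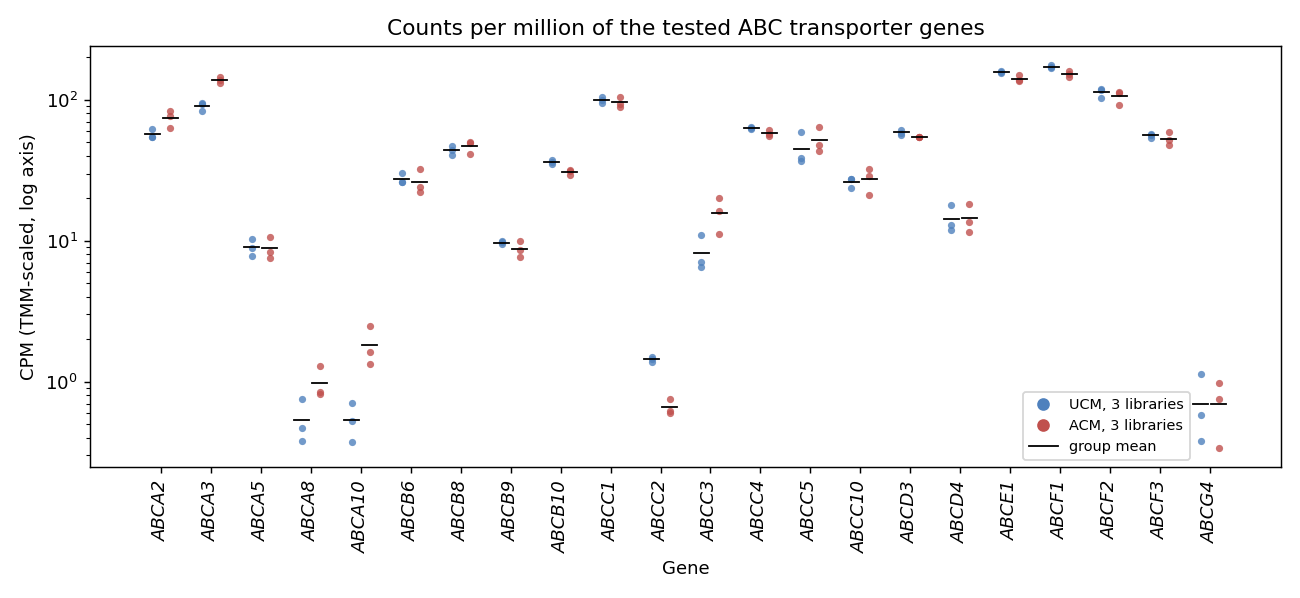
CPM (log axis) of 22 of the 24 tested ABC transporter genes, each point 1 library, with UCM in blue, ACM in red and black bars at the group means of 3 libraries. ABCA3 and ABCA10 lie higher in every ACM library, ABCC2 lies lower in every ACM library, and the high-level genes ABCE1 and ABCF1 sit just below their UCM points.

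The sequence before the start site is shown for these 3 genes, ABCA3 and ABCA10 because they passed the test and ABCC2 because it had the lowest log2 FC of the tested genes. Windows of 250 bases before each RefSeq start (GRCh38.p14) were searched on both strands for 7 motifs. Stretches that fall in exons of the gene or a neighbouring coding gene were left out of what is printed. The ABCA3 window also holds exonic bases of the neighbouring locus ABCA17P, and only exons of protein-coding genes were left out. Capitals mark a motif and every sequence reads 5′ to 3′ along the gene.
ABCC2, chr10:99782390-99782639, plus strand: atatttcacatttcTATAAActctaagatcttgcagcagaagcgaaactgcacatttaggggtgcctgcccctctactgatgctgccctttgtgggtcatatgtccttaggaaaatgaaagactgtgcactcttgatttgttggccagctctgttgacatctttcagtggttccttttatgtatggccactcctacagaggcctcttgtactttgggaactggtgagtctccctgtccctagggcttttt
ABCA3, chr16:2340747-2340978, minus strand: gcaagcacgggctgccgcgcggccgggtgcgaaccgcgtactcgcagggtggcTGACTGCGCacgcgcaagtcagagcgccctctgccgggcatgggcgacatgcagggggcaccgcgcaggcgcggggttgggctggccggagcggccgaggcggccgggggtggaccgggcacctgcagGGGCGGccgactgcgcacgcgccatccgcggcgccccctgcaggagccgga
ABCA10, chr17:69228861-69229074, minus strand: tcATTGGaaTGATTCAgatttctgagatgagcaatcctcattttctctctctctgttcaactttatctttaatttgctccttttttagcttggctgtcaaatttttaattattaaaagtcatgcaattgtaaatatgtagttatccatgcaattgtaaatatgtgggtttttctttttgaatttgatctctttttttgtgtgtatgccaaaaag

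The base composition of these stretches differed widely. The full windows had a GC content of 45.6% for ABCC2, 79.2% for ABCA3 and 31.2% for this ABCA10 start, beside a median of 58.0% over 35116 RefSeq promoter windows. The capitals of ABCC2 are a TATA box (TATAAA) 236 to 231 bases before the start. Those of ABCA3 are an antioxidant response element core (TGACNNNGC) 197 to 189 bases and a GC box (GGGCGG) 69 to 64 bases before the start. In ABCA10 they are an inverted CCAAT box (read as ATTGG) 248 to 244 bases and an AP-1 site (TGANTCA) 241 to 235 bases before the start, and another CCAAT box lies 21 to 17 bases before it, in the exonic stretch not printed. The printed stretch of ABCA10 lies inside the annotated span of the gene (chr17:69147214-69244846) and so precedes an internal start. A second ABCA10 start has its whole window inside an exon of ABCA5 and is not printed. A TATA box (inverted, TTTATA) stands in that window 34 to 29 bases before the second start.

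Starts were listed for 33 of the 42 genes, and 19 of the 24 tested genes had 25 starts. The median GC content of those 25 windows was 66.4%, against 47.6% for starts of the genes without enough counts. The GC box stood in 18 of the 25 windows, from 15 genes, and in 42.6% of all promoter windows. The antioxidant response element core stood in 9 windows, beside 10.9% of all, and the CCAAT box (CCAAT) in 5, beside 32.0%. The E-box (CACGTG) stood in 4, beside 6.34%, and the TATA box in 4, beside 10.7%. The AP-1 letters occurred in ABCA10 alone of the 19 genes, and in 6.57% of all windows. The C/EBP-ATF response element (TGATGNAA) was in 0 of the 25 and in 3.14% of all. The shares over all promoter windows also cover genes without enough counts, and they were not matched for GC content. A match describes letters in a window and not a bound site.

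Levels across the family spanned from the translation factors down to genes at the limit of detection. Levels between genes were compared as TPM, which is scaled for transcript length, and the order given is that of the 24 tested genes. In UCM the highest mean was that of ABCE1, at 79.8 ± 2.65 TPM (SD, n = 3), followed by ABCF1 at 78.7 ± 3.34 TPM, and the libraries of these neighbours overlapped. ABCF2 with 52.9 TPM and ABCF3 with 46.8 TPM came next and also overlapped, and the highest transporter proper was ABCB8 with 37.6 TPM, separate from its neighbours on either side. From ABCD3 at 29.0 TPM to ABCC10 at 12.2 TPM, 12 genes followed, and most neighbours in that order overlapped. ABCA3 and ABCC4 were an exception, since the lowest UCM value of ABCA3 lay above the highest of ABCC4. ABCB9, ABCC3 and ABCA5 lay between 5.83 and 4.71 TPM. ABCC2, ABCA10, ABCG4 and ABCA8 were last of the tested genes, at 0.72, 0.31, 0.29 and 0.22 TPM, and did not differ beyond their spread from the next in order.

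**Figure D2:**
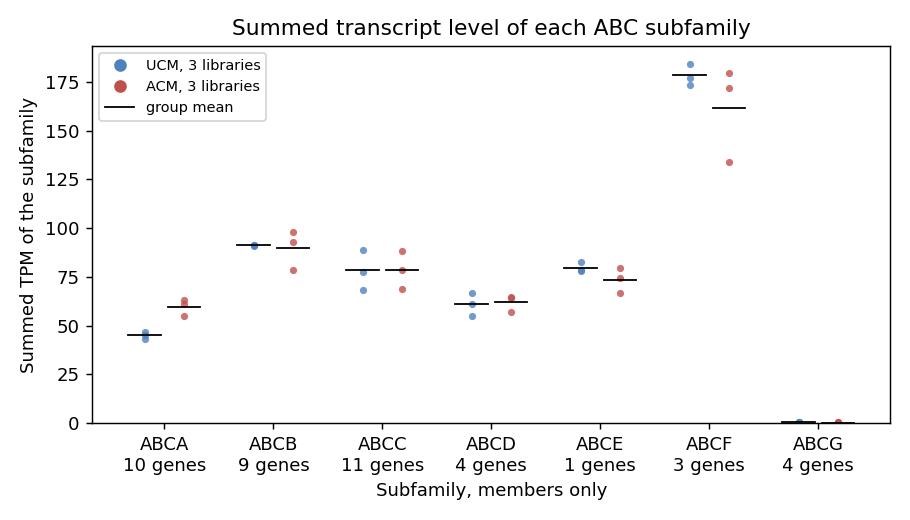
Summed TPM of all genes of each subfamily (ABCA1, ABCA7 and ABCG1 left out), each point 1 library, with UCM in blue, ACM in red and bars at the means. Subfamily A is the one whose ACM points, 55.15 to 63.32 TPM, all lie above its UCM points, 43.31 to 46.54 TPM.

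By subfamily, summed TPM was 59.8 ± 4.2 in ACM and 45.0 ± 1.62 in UCM for A (SD, n = 3 each), and these libraries did not overlap. Most of the sum of A came from ABCA3, with means of 33.9 TPM in ACM and 23.9 TPM in UCM, and from ABCA2. ABCA2 had 19.8 and 15.8 TPM and ABCA5 had 4.19 and 4.71 TPM, each with overlapping libraries. Subfamily B gave 89.9 ± 9.96 TPM in ACM and 91.2 ± 0.195 TPM in UCM, C gave 78.6 ± 9.86 and 78.4 ± 10.4 TPM, and D gave 61.9 ± 4.19 and 61.0 ± 5.77 TPM, all with overlapping libraries. Subfamily F reached 161.7 ± 24.4 TPM in ACM and 178.4 ± 5.36 TPM in UCM. Subfamily E is ABCE1 alone, with 73.5 ± 6.52 TPM in ACM and 79.8 ± 2.65 TPM in UCM and overlapping libraries, and the libraries of F overlapped as well. The G genes together reached 0.37, 0.17 and 0.44 TPM in ACM and 0.65, 0.48 and 0.67 TPM in UCM, lower in every ACM library, on few counts. In UCM, ABCG2 made up 0.48, 0.02 and 0.42 TPM of these sums, on 8, 1 and 1 counts. The transcript length that entered its TPM was 1147, 3926 and 199 bases in UCM and 3926 to 3930 bases in ACM. The order of the G sums thus rested partly on unequal lengths. These sums were not tested.

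Subfamily A held 10 of the genes, of which 5 were tested and 2 rose. ABCA3 moves phospholipids into the lamellar bodies of lung surfactant cells and lies at chr16:2275881-2340746 on the minus strand. Its level was 132, 145 and 138 CPM in the ACM libraries and 83.7, 93.2 and 94.3 CPM in the UCM libraries. Every ACM library was thus above every UCM library. The log2 FC was 0.61 ± 0.07 (SE), with an edgeR adjusted p of 0.0023. ABCA3 was called in each of the 16 alternative settings as well, with log2 FC values from 0.49 to 0.65 and adjusted p-values up to 0.0265. Without replicate 1 of both groups the adjusted p from edgeR was 5.9e-04.

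ABCA10 lies in a cluster of related genes on the minus strand of chromosome 17 (chr17:69147214-69244846) whose products are thought to handle lipids. The ACM libraries held 28, 44 and 30 counts and the UCM libraries 15, 7 and 9 counts, or 1.33, 2.48 and 1.63 CPM against 0.711, 0.376 and 0.525 CPM. The groups did not overlap, but the level was low. The log2 FC was 1.73 ± 0.41 (SE) and the edgeR adjusted p 0.0378. This call was lost without ACM replicate 2 (adjusted p = 0.168), ACM replicate 3 (0.0796), UCM replicate 2 (0.169) or UCM replicate 3 (0.138), by the same edgeR test. It was kept without both replicate 1 libraries, at an edgeR adjusted p of 0.0175. ABCA10 was not called on TPM with 0.1 added (limma adjusted p = 0.0765) or with effective lengths as offsets (edgeR adjusted p = 0.0789), and over all alternatives its adjusted p ran from 0.0046 to 0.169. Exons of ABCA10 and its neighbour ABCA5 share 318 bases on the same strand, so the division of some reads between these genes is uncertain, although a fractional count appeared in 1 library only.

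Of the other cluster members, ABCA8 and ABCA5 did not pass the test, and ABCA6 and ABCA9 had too few counts to be tested. For ABCA8, ACM gave 27, 15 and 15 counts and UCM gave 8, 14 and 8, with the lowest ACM library just above the highest UCM library. Its log2 FC was 0.89 ± 0.43 (SE) and its edgeR adjusted p 0.253. ABCA5, a lysosomal lipid transporter gene, stood at 8.32, 10.7 and 7.50 CPM in ACM and 10.3, 8.93 and 7.81 CPM in UCM. Its groups overlapped, and the log2 FC was −0.03 (edgeR adjusted p = 0.933). ABCA6 had a sum of 2 counts in each medium, and ABCA9 had 5 in ACM and 1 in UCM.

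ABCA2, known from the lysosomes of myelin-forming cells, read 83.2, 76.7 and 62.8 CPM in ACM and 62.2, 54.9 and 54.9 CPM in UCM. All ACM values lay above all UCM values, the nearest pair by a small margin. Its log2 FC was 0.37 ± 0.11 (SE), with an unadjusted p of 0.0054 in edgeR and an adjusted p of 0.0704. It passed with DESeq2 (adjusted p = 0.0221) and, in edgeR, without ACM replicate 3 (adjusted p = 0.0345), UCM replicate 1 (0.0312) or both replicate 1 libraries (0.0374), over a range of 8.4e-04 to 0.367. The retinal transporter gene ABCA4 had 4 counts in ACM and 1 in UCM over the 3 libraries. ABCA12, which loads lipids into skin lamellar granules, and ABCA13 had counts in ACM only, 1 and 2 in sum.

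Subfamily B split into genes with clear levels and genes near 0. ABCB1, the P-glycoprotein gene, and ABCB4, the phosphatidylcholine flippase of bile, were at 0 in all 6 libraries. A gene at 0 could have had up to 3 counts by chance of sampling, which corresponds to 0.142 to 0.175 CPM depending on the library and covers counting error only. ABCB11, the bile salt export pump gene, and ABCB5 had 1 count each, both in UCM.

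The measured B genes encode organelle transporters. ABCB8, of the mitochondrial inner membrane, was the most abundant, with 50.0, 41.3 and 49.5 CPM in ACM and 40.6, 46.9 and 44.3 CPM in UCM. Its groups overlapped (log2 FC = 0.09, edgeR adjusted p = 0.614). ABCB10, a mitochondrial transporter needed for heme formation, read 31.5, 29.5 and 32.0 CPM in ACM and 37.5, 36.5 and 35.1 CPM in UCM. These groups were apart by a small margin, at a log2 FC of −0.23 ± 0.08 (SE) with an unadjusted p of 0.0181 and an adjusted p of 0.128 in edgeR. ABCB6, a porphyrin transporter gene, had a log2 FC of −0.07 with overlapping libraries. ABCB9, a lysosomal peptide transporter gene, read 9.93, 7.72 and 8.64 CPM in ACM and 9.52, 9.89 and 9.74 CPM in UCM, at a log2 FC of −0.15 (edgeR adjusted p = 0.591). Exons of ABCB6 share 2841 bases with a read-through gene (ENSG00000284820), and ABCB6 had fractional counts in all 6 libraries.

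Subfamily C was the largest, with 11 genes, 6 of them tested and 0 called. ABCC2 is known for exporting glucuronide and glutathione conjugates, bilirubin glucuronide among them, through the apical membrane of liver, kidney and gut cells. The gene lies at chr10:99782640-99852594 on the plus strand. The ACM libraries held 16, 11 and 11 counts and the UCM libraries 29, 28 and 25 counts, or 0.760, 0.620 and 0.598 CPM against 1.37, 1.5 and 1.46 CPM. The groups did not overlap and the spread within each was small. The log2 FC was −1.12 ± 0.34 (SE), with an unadjusted p of 0.0081 and an adjusted p of 0.0861 in edgeR. In none of the 16 alternative settings did ABCC2 pass the adjusted threshold, its adjusted p ran from 0.0506 to 0.274, and its log2 FC lay between −1.81 and −0.50, negative throughout. Markers of hepatocytes, a cell type rich in ABCC2, summed to 0.06 to 1.25 TPM in ACM and 0.06 to 0.45 TPM in UCM, with TTR and CYP3A4 at 0.

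The TPM of ABCC2 rested on an uneven length. Its TPM was 0.25, 0.16 and 0.18 in ACM and 0.48, 1.19 and 0.49 in UCM. UCM replicate 2 thus stood far above the other UCM libraries although its count was in the middle of them. RSEM's effective length, the mean usable length of the gene's transcripts weighted by their estimated share, was 4381, 5526 and 4863 bases in ACM and 4152, 1783 and 4232 bases in UCM. The longest was 3.10 times the shortest, and UCM replicate 2 had the shortest. On TPM with 0.1 added, the log2 FC was −1.37, with a limma adjusted p of 0.125. With effective lengths as offsets, edgeR gave −1.81 and an adjusted p of 0.0917.

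The related exporter ABCC3 (MRP3), which carries glucuronides and bile salts across the basolateral membrane, was higher in ACM than in UCM in all libraries. It read 16.2, 20.2 and 11.1 CPM in ACM and 10.9, 6.56 and 7.11 CPM in UCM. The lowest ACM library and the highest UCM library were nearly equal. The log2 FC was 0.94 ± 0.26 (SE), with an unadjusted p of 0.0065 and an adjusted p of 0.0767 in edgeR, and DESeq2 gave an adjusted p of 0.0027. Without UCM replicate 1 the edgeR adjusted p was 0.018, without ACM replicate 3 it was 0.0457, and without both replicate 1 libraries it was 0.0486. On TPM the log2 FC was smaller, 0.61 with a limma adjusted p of 0.356, and the gap of 0.335 between both scales was the widest of the 24 genes. Its effective length differed 1.55 times between libraries.

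None of the remaining measured MRP genes passed the test. ABCC1 (MRP1), an exporter of leukotriene C4 and glutathione conjugates, was the most abundant by TPM, and read 105, 93.7 and 89.0 CPM in ACM and 105, 95.4 and 99.3 CPM in UCM. Its groups overlapped (log2 FC = −0.06, edgeR adjusted p = 0.733). ABCC4 (MRP4), which exports cyclic nucleotides and prostaglandins, was 57.9 ± 2.58 CPM in ACM and 63.2 ± 0.669 CPM in UCM. Its libraries did not overlap, yet the log2 FC was −0.13 with an edgeR adjusted p of 0.321. ABCC5 (MRP5) read 64.2, 47.8 and 43.2 CPM in ACM and 59.4, 36.7 and 38.5 CPM in UCM. Both replicate 1 libraries were the highest of their group, and the log2 FC was 0.20 ± 0.23 (SE). ABCC10 (MRP7) had a log2 FC of 0.06 on counts and −0.09 on TPM, neither past the threshold.

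The other 5 genes of subfamily C were near or at 0. ABCC8, the sulfonylurea receptor gene of pancreatic beta cells, and ABCC12 were at 0 in every library. ABCC9, its counterpart in heart and vessels, had 3 counts, all in UCM. ABCC6, mutated in pseudoxanthoma elasticum, had 2 counts in ACM and 1 in UCM. ABCC11, which sets the earwax type, had 9 counts in each medium.

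Subfamily D serves fatty acids in peroxisomes and cobalamin in lysosomes. ABCD3, the peroxisomal membrane protein PMP70, was the most abundant of the subfamily and read 54.5, 54.1 and 54.9 CPM in ACM and 56.7, 61.2 and 58.4 CPM in UCM. These groups did not overlap, at a log2 FC of −0.11 (edgeR adjusted p = 0.393). ABCD2, another peroxisomal transporter gene, was at 0 in all libraries.

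ABCD4, which works with LMBRD1 in the release of cobalamin from lysosomes, read 18.1, 13.7 and 11.6 CPM in ACM and 17.9, 12.9 and 12.0 CPM in UCM. Both replicate 1 libraries were the highest of their group, the groups overlapped, and the log2 FC was 0.02 (edgeR adjusted p = 0.965). Its exons share 624 bases with another annotated gene (ENSG00000258559).

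The ribosome-bound members in subfamilies E and F all had log2 FC values below 0. ABCE1, which splits ribosomes after termination and was first described as an inhibitor of RNase L, read 139, 135 and 150 CPM in ACM and 161, 156 and 156 CPM in UCM. ABCF1, an initiation factor partner that binds eIF2, read 153, 146 and 160 CPM in ACM and 176, 167 and 171 CPM in UCM. In both genes each ACM library lay below each UCM library. The log2 FC was −0.16 ± 0.07 (SE) for each, with edgeR adjusted p-values of 0.186 for ABCE1 and 0.166 for ABCF1. ABCF2 and ABCF3, its relatives, had log2 FC values of −0.10 and −0.07 with overlapping libraries. Part of the ABCF2 signal is uncertain, since ABCF2 shares 1914 exonic bases with the read-through gene ABCF2-H2BK1, which itself had 964, 955 and 1086 counts in ACM and 1409, 1099 and 988 counts in UCM.

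Subfamily G had no gene with more than a trace. ABCG4, a sterol transporter gene of the brain, had 16, 6 and 18 counts in ACM and 8, 21 and 10 counts in UCM, at a log2 FC of 0.01 ± 0.53 (SE). ABCG2, the breast cancer resistance protein that exports many drugs, had 3, 2 and 2 counts in ACM and 8, 1 and 1 counts in UCM, too few to test. The intestinal sterol exporter pair ABCG5 and ABCG8 had 0 counts and 1 count in sum.

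**Figure D3:**
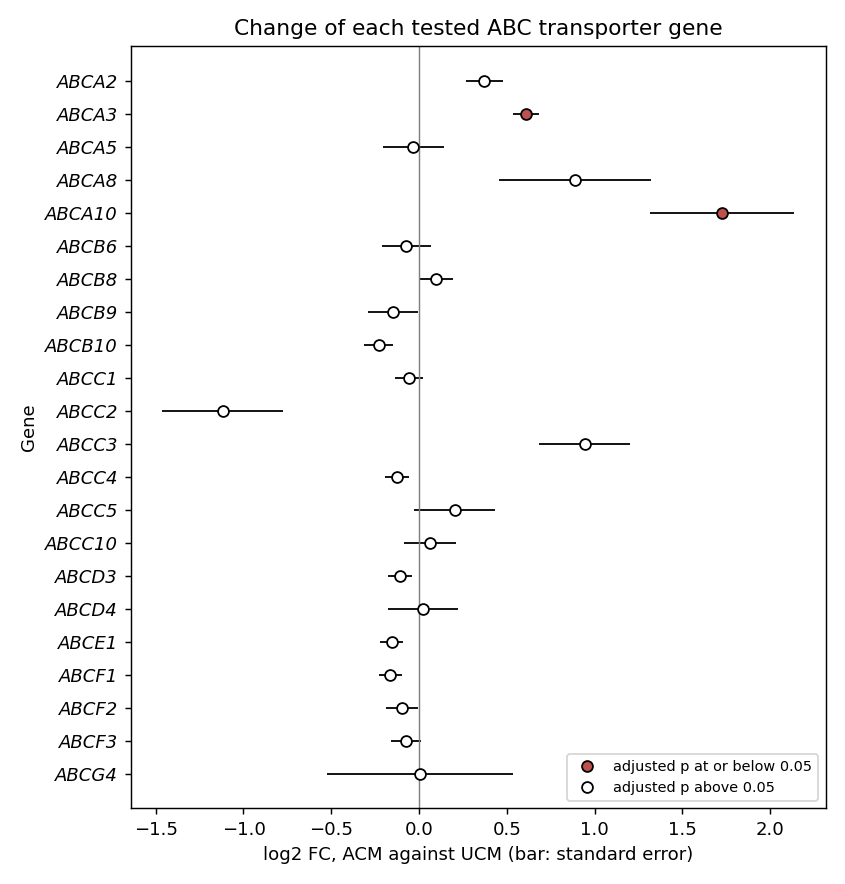
Log2 FC of ACM against UCM for 22 of the 24 tested genes (points) with standard errors (bars), filled where the edgeR adjusted p was at or below 0.05. The 2 filled points are ABCA3 and ABCA10, and the values run from −1.12 for ABCC2 to 1.73 for ABCA10.

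Over the 24 tested genes the log2 FC was positive for 11, where 48.1% of all tested genes were, and negative for 13, with a median of −0.04, beside −0.01 over all 14451 genes. At an unadjusted p of 0.05 or less in edgeR, 5 genes were higher in ACM, ABCA10, ABCA3, ABCA2 and ABCC3 among them, and 4 lower (ABCC2, ABCB10, ABCF1 and ABCE1), where 11.9% and 11.5% of all tested genes were. CPM of ACM and UCM did not overlap for 12 genes, 6 of them above and 6 below, while 13.9% and 15.1% of all tested genes were apart in these directions. A log2 FC of at least 0.58 in size was found for 5 genes (ABCA10, ABCA3, ABCA8, ABCC2 and ABCC3) and for 9.24% of all tested genes. The number of called transporters depended on the setting. DESeq2 called 4 (ABCA10, ABCA2, ABCA3 and ABCC3), beside 8.41% of all genes to which it gave an adjusted p. The edgeR test without both replicate 1 libraries called the same 4 genes, beside 12.1%. With a replicate block 5 were called, these 4 among them, beside 11.2%, and with effective lengths as offsets ABCA3 alone, beside 2.81%. Of the genes set aside by the rule, the cholesterol exporter gene ABCA1 had a log2 FC of 3.47 with an edgeR adjusted p of 0.0040, ABCA7 had 0.37 with 0.169, and ABCG1 was at 0 in every library.

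Effective lengths differed between libraries for several genes. Among the 21 genes with at least 10 counts in every library, the length varied over 1.5 times between libraries for 5, namely ABCC2, ABCD4 (1.68 times), ABCB9 (1.57 times), ABCC3 and ABCA5 (1.52 times), as it did for 13% of all genes with that many counts. The groups of lengths did not overlap for 3 of the 21, beside 9.4% of all genes. These were ABCC2, ABCB10 and ABCA3, all longer in ACM. For ABCA3 the lengths were 5627, 5815 and 5840 bases in ACM and 5178, 5573 and 5504 bases in UCM, and its log2 FC with lengths as offsets was 0.53 (edgeR adjusted p = 0.0081). The TPM and count scales gave opposite signs for ABCC10 and ABCG4 only.

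**Figure D4:**
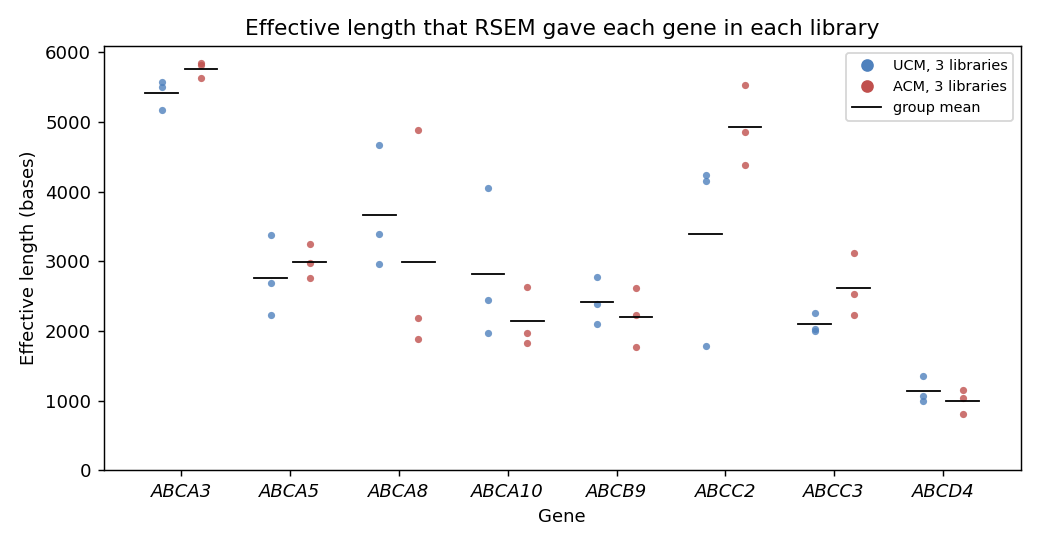
Effective length in bases that RSEM assigned to 8 of the genes, each point 1 library, with UCM in blue, ACM in red and bars at the means. ABCC2 shows the widest range, from 1783 bases in UCM replicate 2 to 5526 bases in ACM replicate 2, and ABCA8 and ABCA10 rest on fewer than 10 counts in some libraries.

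Genes that work with these transporters were taken from typed lists and described by their counts. The peptide transporter subunits TAP1 and TAP2, which are ABC genes under other symbols, had log2 FC values of −0.12 and −0.18 without passing the test, and the chloride channel gene CFTR was at 0. Of the enzymes that make glutathione or the conjugates that MRPs export, 23 were tested and 0 passed the adjusted threshold in edgeR, with 4 at an unadjusted p under 0.05. Their median log2 FC was 0.03. Across all tested genes 5.56% passed the adjusted threshold and 23.3% had an unadjusted p of 0.05 or less. The counts in this paragraph are to be read beside these shares and are no result about a list as a whole. Among 16 tested receptors and factors known to regulate drug exporters, 1 passed and was higher in ACM. This was JUN, a subunit of AP-1, which rose from 263.9 ± 9.89 to 347.0 ± 27.7 CPM (log2 FC = 0.39, edgeR adjusted p = 0.0155). NFE2L2, the activator that binds antioxidant response elements, had a log2 FC of 0.01, and the xenobiotic receptor gene NR1I2 was at 0. Of 10 tested scaffold genes of apical exporters 0 passed in edgeR, with 2 at an unadjusted p under 0.05. RDX, whose product radixin anchors ABCC2 in liver, had a log2 FC of −0.28 with overlapping libraries and an edgeR adjusted p of 0.114. EZR and MSN, also on this list, had log2 FC values of −0.15 and 0.06, with overlapping libraries too. RAB11A was higher in ACM, at a log2 FC of 0.24 with an edgeR adjusted p of 0.12. The median of the scaffold list was 0.07.

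The counts of called genes in the lists that follow are to be read beside the 3.35% of all tested genes called higher and the 2.21% called lower in ACM, and with so few genes they are no result about a list as a whole. Among 16 tested solute carriers of drugs and organic ions, 2 rose and 0 fell. SLCO4A1, an organic anion transporter gene, went from 63.1 ± 2.22 to 87.6 ± 7.88 CPM (log2 FC = 0.47, edgeR adjusted p = 0.0108). SLC22A23, of the organic ion family with little known substrate, went from 21.6 ± 2.43 to 40.7 ± 8.88 CPM (log2 FC = 0.91, edgeR adjusted p = 0.0143). The median of the list was 0.26.

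In the list of peroxisomal fatty acid oxidation and import, 1 of 31 tested genes rose, PEX6, an ATPase that recycles the import receptor (log2 FC = 0.46, edgeR adjusted p = 0.0192), and 0 fell. Of 10 tested genes of cobalamin handling, MMAB fell, and 0 rose. MMAB makes adenosylcobalamin in mitochondria, and its libraries held 126, 121 and 111 counts in ACM and 246, 364 and 309 counts in UCM. All ACM counts were below all UCM counts, at a log2 FC of −1.38 ± 0.19 (SE) and an edgeR adjusted p of 0.0050. LMBRD1, the lysosomal partner of ABCD4, had a log2 FC of 0.26 with an edgeR adjusted p of 0.421. Of 30 tested genes of heme and iron-sulfur cluster synthesis, MMS19, an iron-sulfur targeting factor, rose (log2 FC = 0.31, edgeR adjusted p = 0.0473) and 0 fell.

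Partners of ABCE1 and the ABCF proteins in translation held 24 tested genes, of which 2 fell and 0 rose, where 2.21% of all tested genes fell and 3.35% rose. EIF5, the activator of GTP hydrolysis by eIF2, read 174.2, 153.4 and 160.5 CPM in ACM and 239.6, 235.4 and 222.3 CPM in UCM, with no overlap. Its log2 FC was −0.51 ± 0.07 (SE) and its edgeR adjusted p 0.0040. EIF2S1, the alpha subunit of eIF2, went from 141.5 ± 1.32 to 114.0 ± 5.26 CPM (log2 FC = −0.31, edgeR adjusted p = 0.0233). The median of this list was −0.06. The potassium channel genes that pair with ABCC8 and ABCC9 were too low to test, with KCNJ8 at 0 and KCNJ11 at 4 counts or fewer in each library.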

How the data were processed

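PolyA RNA of BT-549 cells in ACM or UCM was sequenced in pairs. According to the submitters' processing notes and the methods of the study, Trim Galore removed adapters, STAR placed the reads on GRCh38 and RSEM estimated the counts. Versions and the gene annotation are not given in the sources used here, nor is it stated whether the libraries keep the strand. Reads of overlapping antisense genes (near ABCB9, ABCC10, ABCC11 and ABCE1 among others) may therefore be shared. ABCC11 had 18 counts in sum, beside 10155 for LONP2, which overlaps it on the other strand. For each gene and library the authors deposited the RSEM expected count, the TPM and an effective length in bases. A table of the authors' own DESeq2 comparison (fold changes and p-values) was not used.

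Expected counts were rounded to whole numbers. Of 63140 listed genes, 61547 matched GENCODE 44 by identifier and version. Genes were filtered with filterByExpr, scaled by TMM and tested with edgeR 4.0.16 in R 4.3.3 (quasi-likelihood, robust, condition only), with Benjamini-Hochberg adjustment over 14451 genes at 0.05. The common biological coefficient of variation was 0.115. Alternatives used DESeq2 1.42.0, limma 3.58.1 on TPM, other filters and scalings, effective lengths as offsets, a replicate block, and libraries left out. DESeq2 gave no adjusted p for ABCA8 and ABCG4, nor for the 12 transporter genes that had a count but were not tested in edgeR. The code was tested on simulated data. The transporters, the typed lists and the tests were chosen with earlier results of these data known. Values in every library were given for ABCC2, for members at an unadjusted p of 0.05 or less, for the most abundant member of each subfamily by TPM and for members with unequal effective lengths; of each list, genes past the adjusted p were named. Other genes of the lists and the text were named after their values were seen. Values of 2 tested transporter genes are not reported here singly, and some listed genes were not analysed here. Protein sequences were not used here.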

Additional observations from a re-analysis of the deposited data

How the results depend on the processing

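Of the 24 tested transporter genes, 2 were called, and 2 also with RLE size factors or protein-coding genes only. There were 4 with DESeq2 and 5 with a filter of 1 count in total, where 36 transporter genes were fitted in each. DESeq2 gave an adjusted p to only part of those it fitted. With at least 10 counts in every library there was 1 of 21 (ABCA10 was left out). There was 1 with limma on log2(TPM + 1), 1 on log2(TPM + 0.1) and 1 with effective lengths as offsets. Leaving out 1 library gave 1 to 4 calls: 1 without ACM replicate 2, UCM replicate 2 or UCM replicate 3, and 4 without UCM replicate 1. Without replicate 1 of both groups, chosen after seeing the data, there were 4. The genes called lower in ACM were 0 in all 16 alternatives. Whether the replicate numbers pair the samples could not be decided. Deviations of same-numbered libraries correlated at 0.318, 0.0347 and 0.177, and that of the replicate 1 libraries was the highest of any ACM and UCM pair. ACM replicate 3 correlated best with UCM replicate 2 (0.196), by a small margin. With a replicate block, 5 transporters were called (ABCA10, ABCA2, ABCA3 and ABCC3 among them), beside 11.2% of all genes. All genes called were 5.56% in the main test, 8.41% with DESeq2, 12.1% without both replicate 1 libraries and 2.81% with length offsets. For the remaining settings that share is not given here. In those settings a change in the transporters cannot be told apart from a shift over all genes. The median log2 FC lay between −0.08 and 0.01. The cause of these shifts was not tested. Of the genes reported, direction turned only for those near 0. ABCA5 ranged from −0.19 to 0.082 with 1 library left out and was 0.13 without both replicate 1 libraries. Likewise ABCB6 ranged from −0.24 to 0.027 and ABCD4 from −0.17 to 0.23. ABCC10 ranged from −0.068 to 0.22 and was −0.084 and −0.091 on TPM plus 1 and plus 0.1, −0.063 with length offsets and −0.031 without both replicate 1 libraries. ABCG4 ranged from −0.31 to 0.54 and was −0.0066, −0.026, −0.017 and −0.36 in the same settings. Of the list genes past the threshold, MMAB and EIF5 were called in 16 alternatives, SLCO4A1 in 14, JUN in 13, SLC22A23 in 11, PEX6 in 10, EIF2S1 in 9 and MMS19 in 8. Depth limits ABCC2, ABCA8, ABCA10 and ABCG4, which held at most 44 counts in any library, and the 18 genes not tested, whose largest sum over all libraries was 18 counts.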
